A study of Mus musculus with 14 samples.

Results

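The interaction of *Rnaseh2b* and *Atg16l1* loss in mouse small intestinal organoids was examined as the contrast (*Atg16l1/Rnaseh2b* ΔIEC minus *Atg16l1* ΔIEC) minus (*Rnaseh2b* ΔIEC minus WT), formed from the mean log2 level of each gene in the 4 genotypes. The contrast was taken for the 12804 of 18781 genes with a mean of at least 3.32 over all 14 libraries, which is 10 on the linear scale. The lowest gene kept had a mean of 3.321 and the highest gene left out one of 3.319. A contrast of 0 means that the effects of both deletions add up on the log2 scale, so that their fold changes multiply. A gene with a positive contrast lay above the level that the single deletions add up to in *Atg16l1/Rnaseh2b* ΔIEC organoids (above additive), and a gene with a negative contrast lay below it (below additive).

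The study compared intestinal organoids, which are epithelial cultures grown from crypt stem cells in Matrigel, by stranded mRNA sequencing without any treatment. The 4 WT libraries were from mice with floxed alleles of both *Atg16l1* and *Rnaseh2b* and no Cre. The 4 *Atg16l1* ΔIEC libraries carried floxed *Atg16l1* and Villin-Cre, the 2 *Rnaseh2b* ΔIEC libraries floxed *Rnaseh2b* and Villin-Cre, and the 4 *Atg16l1/Rnaseh2b* ΔIEC libraries both floxed genes and Villin-Cre. The single knockouts are labelled with their own floxed gene alone, whereas WT carries both. Per the labels, Cre was heterozygous in all 3 deleted genotypes, and they give no age. Villin-Cre acts in the intestinal epithelium, so the deletion was directed at the epithelial cells, which are the cells of these cultures. As WT alone lacked Cre, an effect of Cre itself would enter the contrast once with a negative sign, and it cannot be told apart from the interaction. No label says whether libraries of a genotype came from separate mice, so p-values measure the spread between these libraries, which may be partly technical.

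ATG16L1 is part of the complex that attaches LC3 to the growing autophagosome membrane, and its loss blocks the formation of functional autophagosomes. RNASEH2B is a subunit of RNase H2, which removes single ribonucleotides left in DNA by the replicative polymerases, and its loss causes DNA breaks and a p53 response in dividing epithelial cells. The intestinal epithelium is renewed from Lgr5-positive crypt stem cells, whose progeny become either absorptive enterocytes, which carry the digestive enzymes and nutrient transporters, or secretory goblet, Paneth, enteroendocrine and tuft cells.

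The libraries carried a structure besides genotype. The library names place WT in lane 1 and both single knockouts in lane 2, while *Atg16l1/Rnaseh2b* ΔIEC was split, with libraries 1 and 2 in lane 2 and the other two in lane 1. A difference between lanes therefore enters the contrast with a weight of -1.5, and the interaction contrast cannot be formed within a lane. A lane term rests on the split within *Atg16l1/Rnaseh2b* ΔIEC, where lane, library pair and sex coincide. Libraries 1 and 2, and 3 and 4, of a genotype deviated together from its mean (r from 0.31 to 0.85) and were of 1 sex judged by *Xist* and genes of chromosome Y, and the *Rnaseh2b* ΔIEC libraries form a single male pair. Markers of enterocytes, stem, Paneth, goblet, enteroendocrine and tuft cells were all above the filter, whereas *Col1a1*, *Pdgfra*, *Des*, *Ptprc* and *Cd3e* were below it in every library. Of 21 stromal, endothelial, glial and immune markers 6 were tested, the highest of them *Vim* with levels from 7.41 to 8.22, 0 were past the threshold and their median contrast was 0.07. In such bulk libraries, fewer cells of a type and less RNA per cell cannot be told apart.

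The contrast was past the threshold (limma, Benjamini-Hochberg adjusted p under 0.05) for 4499 genes, 35.1% of those tested. Of these, 2180 were above additive (17%) and 2319 below it (18.1%), a split of 48.5% positive calls that became 62.3% under total scaling. The counts of each gene list below are to be read against these shares. For calls in both fits, without and with a lane term, the share over all genes was 12.1%. The median contrast over all tested genes was -0.0012 and the median size of the called contrasts 0.36. Most deviations were therefore moderate: 576 called genes were above 0.5 and 748 below -0.5, 122 were above 1 and 197 below -1, and 14 were above 2 and 15 below -2. For 3583 of the calls (28.0% of the genes tested) the sign was the same for each of the 128 ways of choosing 1 library per genotype, 1726 of them above (13.5%) and 1857 below additive (14.5%). Called or not, 3685 genes (28.8%) had 1 sign over these choices.

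Genes are called here for a large difference between the effects of *Rnaseh2b* deletion without and with *Atg16l1* deletion, so that opposite signs of these effects are favoured by the choice of genes itself. Among the called genes, the effect of *Rnaseh2b* deletion pointed in opposite directions without and with *Atg16l1* deletion in 2104 of 2319 genes below additive (90.7%) and in 2007 of 2180 above it (92.1%). Both effects were themselves past the threshold and opposite for only 939 of the called genes, 1704 passed only without and 1232 only with *Atg16l1* deletion, 15 passed both ways in the same direction and 609 neither way. Over all genes, *Rnaseh2b* deletion was past the threshold for 3424 genes (26.7%) without and 3218 genes (25.1%) with *Atg16l1* deletion. Across the 12804 genes these effects, which share no library, had a Pearson r of -0.37 and a Spearman rho of -0.33. These values are a description only, since genes are not independent and lane enters both effects. A difference between lanes enters the effects with opposite signs, and by itself gives a negative correlation and opposite directions. Its part here was not tested. Read the other way, the effect of *Atg16l1* deletion was past the threshold for 2450 genes (19.1%) without and 3262 genes (25.5%) with *Rnaseh2b* deletion. This effect pointed in opposite directions in 91.5% of the genes below and 95.1% of those above additive. Lane enters the effects of *Atg16l1* deletion with opposite signs as well.

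**Figure D1:**
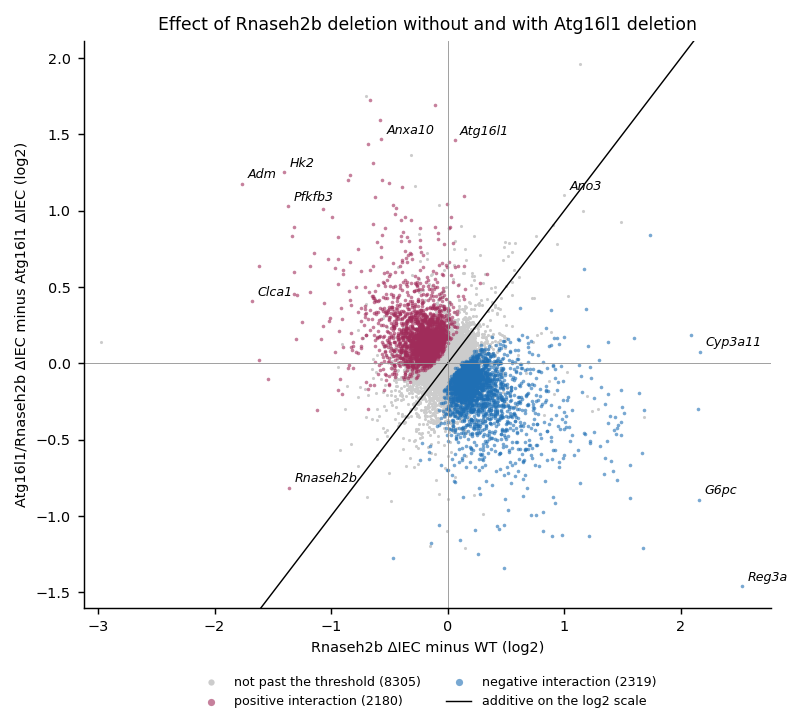
Each point is 1 of 12804 genes, placed by the effect of *Rnaseh2b* deletion without *Atg16l1* deletion (x axis, log2) and with it (y axis, log2). Genes on the black diagonal are additive, *Ano3* lies near it, and most coloured genes (2180 above and 2319 below additive) lie in the quadrants where the 2 effects have opposite signs.

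Both targeted genes, which check the labels, deviated from additivity. *Atg16l1* was measured at log2 levels of 9.43, 9.54, 9.44 and 9.44 in WT, 6.87, 7.35, 6.75 and 6.73 in *Atg16l1* ΔIEC, 9.52 and 9.53 in *Rnaseh2b* ΔIEC and 8.37, 8.14, 8.57 and 8.47 in *Atg16l1/Rnaseh2b* ΔIEC. Every library with the *Atg16l1* deletion lay below every library without it, and the *Atg16l1/Rnaseh2b* ΔIEC libraries lay above all *Atg16l1* ΔIEC libraries. The additive expectation was 6.99 and the contrast 1.40 (standard error 0.19, limma adjusted p = 0.00022), or 1.0 with a lane term (limma adjusted p = 0.032). In WT organoids the log2 level of *Rnaseh2b* was 8.47, 8.41, 8.58 and 8.70, compared with 8.71, 8.72, 8.58 and 8.48 in *Atg16l1* ΔIEC, 7.21 and 7.15 in *Rnaseh2b* ΔIEC and 7.92, 7.68, 7.79 and 7.84 in *Atg16l1/Rnaseh2b* ΔIEC organoids. The deleted libraries again lay below all others, with those of *Atg16l1/Rnaseh2b* ΔIEC above those of *Rnaseh2b* ΔIEC. The contrast of *Rnaseh2b* was 0.55 (standard error 0.12, limma adjusted p = 0.0037) against an expectation of 7.26, and 0.53 and no longer past the threshold with a lane term (limma adjusted p = 0.079). More transcript of both deleted genes was thus left when both deletions were combined, and its part in the deviations of other genes was not tested. The other RNase H2 subunits, the catalytic *Rnaseh2a* (-0.03, limma adjusted p = 0.75) and *Rnaseh2c* (-0.13, limma adjusted p = 0.13), were not past the threshold.

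Among called genes whose sign held for every choice of 1 library per genotype, large positive contrasts were those of *Adm*, *Hk2*, *Pfkfb3*, *Anxa3*, *Smtnl2*, *Ier3*, *Anxa1*, *Clca1*, *Tent5c*, *Phlda1*, *Anxa10*, *Ly6a*, *Il1rn* and *Egln3*, from 2.94 down to 1.92. The largest negative contrasts were those of *Reg3a*, *G6pc*, *Bco1*, *Slc5a11*, *Lct*, *Ace*, *Apoc3*, *Dpep1*, *Scin*, *Fbp1*, *Cyp3a11*, *Fabp1*, *Bbox1*, *Bst1* and *Cyp2b10*, from -3.99 to -1.995. *Reg3a* had the largest contrast in size of all genes tested. Besides the genes described further on, the positive contrasts included *Tent5c*, a poly(A) polymerase of the cytoplasm (2.07). Among the negative ones were *Bco1*, which cleaves beta-carotene (-2.89), *Slc5a11*, a sodium-coupled inositol transporter (-2.45), and *Dpep1*, a dipeptidase (-2.22). Others were *Scin*, which severs actin filaments (-2.12), *Bbox1*, which completes carnitine synthesis (-2.04), *Bst1*, an enzyme acting on extracellular NAD (-2.02), and *Cyp2b10*, a drug-metabolising cytochrome P450 (-1.995). With a lane term all 29 of these genes kept their sign and 15 stayed past the threshold. The others were *Bco1*, *Slc5a11*, *Lct*, *Ace*, *Dpep1*, *Cyp3a11*, *Fabp1*, *Bst1*, *Cyp2b10*, *Il1rn*, *Ly6a*, *Anxa10*, *Anxa1* and *Anxa3*. Without *Rnaseh2b* ΔIEC library 2, *Fabp1* and *Ly6a* also fell short of the threshold.

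**Figure D2:**
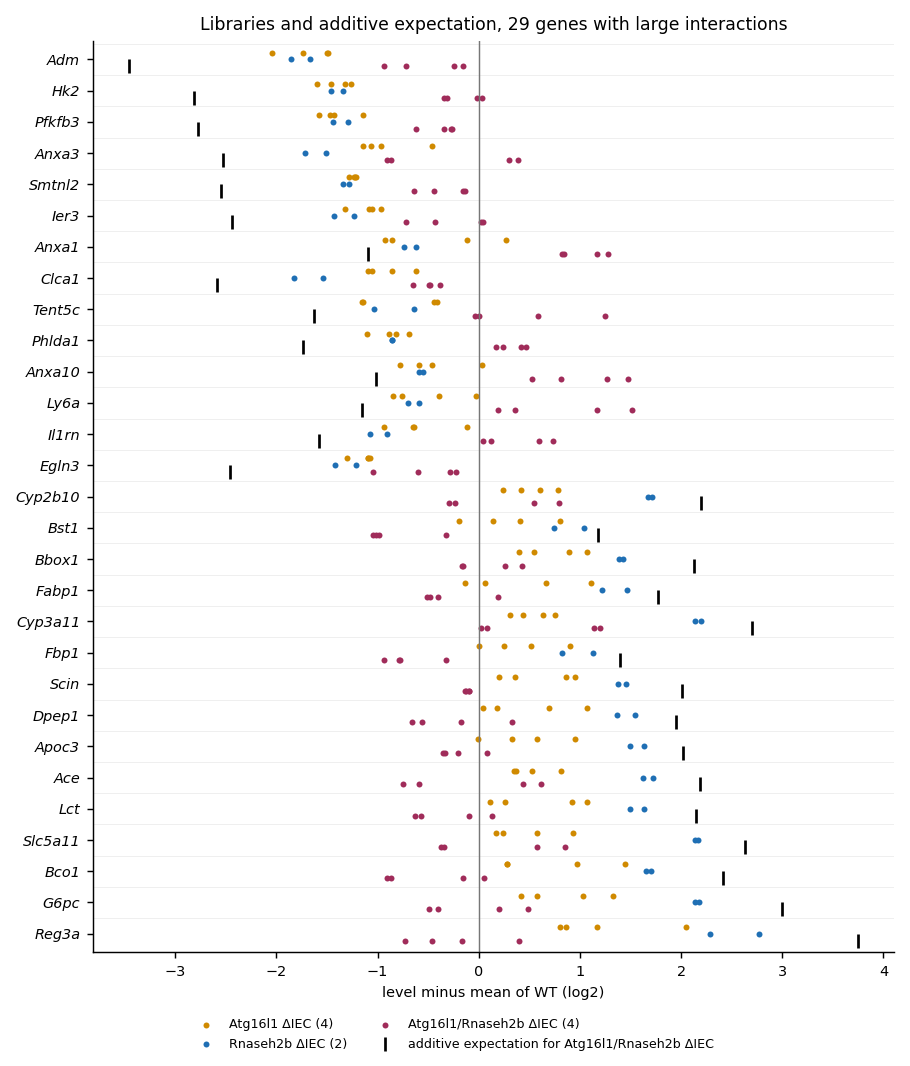
Points are libraries of the 3 knockout genotypes for the same 29 genes with large interactions, as the log2 level minus the mean of the 4 WT libraries (x axis), and black ticks mark the additive expectation for *Atg16l1/Rnaseh2b* ΔIEC organoids. For all 29 genes the tick lies beyond the means of both single knockouts, whereas the mean of the *Atg16l1/Rnaseh2b* ΔIEC libraries lies closer to WT than to the tick.

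*Hk2*, *Pfkfb3* and several targets of the hypoxia response were among the strongest deviations above additive, whereas most enzymes of the glycolytic chain itself were not past the threshold. Log2 levels of *Hk2* were 10.85, 10.90, 11.14 and 11.05 in WT, 9.72, 9.66, 9.38 and 9.52 in *Atg16l1* ΔIEC, 9.52 and 9.64 in *Rnaseh2b* ΔIEC and 10.64, 10.67, 11.02 and 10.97 in *Atg16l1/Rnaseh2b* ΔIEC libraries. All single knockout libraries were lower than all WT and all *Atg16l1/Rnaseh2b* ΔIEC libraries. The lane 1 libraries of *Atg16l1/Rnaseh2b* ΔIEC overlapped with WT, whereas its lane 2 libraries lay below every WT library. *Hk2*, a hexokinase that traps glucose in the cell, fell by 1.40 on the log2 scale with *Rnaseh2b* deletion in the presence of *Atg16l1* and rose by 1.25 in its absence, giving a contrast of 2.66 (standard error 0.16, limma adjusted p = 1.8e-06). The log2 level of *Adm* was 9.45, 9.29, 8.85 and 8.98 in the WT libraries, 7.10, 7.41, 7.64 and 7.65 in *Atg16l1* ΔIEC, 7.29 and 7.47 in *Rnaseh2b* ΔIEC and 8.205, 8.42, 8.90 and 8.98 in *Atg16l1/Rnaseh2b* ΔIEC organoids. The *Adm* libraries of *Atg16l1/Rnaseh2b* ΔIEC organoids lay above every single knockout library. Those of lane 1 overlapped with WT, and those of lane 2 lay below every WT library. *Adm*, which encodes the peptide adrenomedullin, had a contrast of 2.94 (standard error 0.29, limma adjusted p = 2.8e-05). *Pfkfb3* was measured at log2 levels of 11.42, 11.41, 11.15 and 11.06 in WT, 10.12, 9.83, 9.68 and 9.79 in *Atg16l1* ΔIEC, 9.82 and 9.97 in *Rnaseh2b* ΔIEC and 10.64, 10.92, 10.998 and 10.98 in *Atg16l1/Rnaseh2b* ΔIEC. For *Pfkfb3*, an activator of the glycolytic step of phosphofructokinase, *Atg16l1/Rnaseh2b* ΔIEC libraries lay below every WT and above every single knockout library, with a contrast of 2.40 (standard error 0.17, limma adjusted p = 3.4e-06). In the fit that includes lane, the contrasts of *Hk2*, *Adm* and *Pfkfb3* were 2.15, 1.999 and 2.08, each still past the threshold.

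The 250 bases upstream of the RefSeq start of *Hk2* (GRCm38.p6 chr6:82774455-82774704, minus strand) and *Pfkfb3* (chr2:11553930-11554179, minus strand) are shown because these genes carry the largest glycolytic contrasts. They are written 5′ to 3′ on the strand of the gene, and capitals mark ACGTG, the core of the hypoxia response element, on either strand.
Hk2: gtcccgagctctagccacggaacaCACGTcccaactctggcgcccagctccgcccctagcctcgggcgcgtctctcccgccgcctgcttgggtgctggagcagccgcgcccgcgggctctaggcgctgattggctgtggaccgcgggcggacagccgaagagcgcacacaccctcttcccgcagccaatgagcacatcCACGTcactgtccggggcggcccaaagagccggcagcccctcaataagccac
Pfkfb3: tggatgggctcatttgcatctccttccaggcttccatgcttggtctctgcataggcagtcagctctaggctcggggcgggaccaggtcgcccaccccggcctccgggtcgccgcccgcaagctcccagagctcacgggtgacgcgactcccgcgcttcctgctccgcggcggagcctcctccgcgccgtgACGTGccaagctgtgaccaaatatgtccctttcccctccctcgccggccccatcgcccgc
Of the 14 genes named above for a large positive contrast 10 had a promoter in the RefSeq table, and 4 of these (*Hk2*, *Pfkfb3*, *Egln3* and *Ier3*) held ACGTG, compared with 16.57% of all 27025 promoters in the table and none of the 13 promoters found for the 15 largest negative contrasts. The *Adm* window held none of the letters searched. A match is a description of the letters, not of a bound site. These genes were picked by their contrast, and ACGTG was searched for after they were seen. The shares are thus a description only, and a difference between them was not tested. Promoters were found for 10042 of the 12804 tested genes (78.43%), which is too few to compare shares between larger gene sets.

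Of the 38 tested genes of glycolysis and HIF targets, 25 were above and 1 below additive, with a median contrast of 0.57 (over all genes, 17%, 18.1% and -0.0012), and the median effect of *Rnaseh2b* deletion was -0.43 without and 0.12 with *Atg16l1* deletion. *Kdm3a*, a histone demethylase, *Egln1*, an oxygen-sensing prolyl hydroxylase, and *Ankrd37* had contrasts of 1.25, 0.71 and 1.87, and *Egln3*, the related prolyl hydroxylase, 1.92. *Slc2a1*, the glucose transporter GLUT1, and *P4ha1*, which hydroxylates collagen prolines, had 1.70 and 1.30. *Pfkfb4* went the other way (-0.98). Besides *Hk2*, the glycolytic enzymes *Hk1* (0.90), *Pfkp* (0.62), *Pfkl* (0.46) and *Pgam1* (0.32) were above additive, but none of these kept its call with a lane term. The 12 genes short of the threshold included the glycolytic enzymes *Gpi1*, *Pfkm*, *Aldoa*, *Aldoc*, *Tpi1*, *Gapdh*, *Pgk1*, *Eno1*, *Pkm* and *Ldha*, with contrasts from -0.20 to 0.62. *Pkm* (-0.44, limma adjusted p = 0.024) and *Aldoc* (-0.58, limma adjusted p = 0.046) were below additive with a lane term. The median was 0.19 with a lane term, with 11 genes above additive in both fits. Within *Atg16l1/Rnaseh2b* ΔIEC organoids, the mean of the list relative to all libraries was -0.23 and 0.03 in the lane 2 libraries and 0.18 and 0.21 in the lane 1 libraries, whereas it lay between 0.25 and 0.28 in WT (lane 1) and between -0.31 and -0.15 in the single knockouts (lane 2). The list mean thus differed between lanes, which coincide with library pair and sex within *Atg16l1/Rnaseh2b* ΔIEC and with genotype otherwise. The part of lane in the result was not tested beyond the covariate.

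Genes of the ATF4 amino acid response and tRNA charging deviated together in the plain contrast but not with a lane term. Of 45 tested, 25 were above and 0 below additive, with a median of 0.39, and the median effect of *Rnaseh2b* deletion was -0.34 without and 0.006 with *Atg16l1* deletion. *Iars*, the isoleucyl-tRNA synthetase, had 0.58, *Wars* 0.61, *Mars* 0.39, and *Ddit4*, a stress-induced inhibitor of mTORC1, 1.63. With lane in the model the median was -0.093, 2 genes were above and 5 below additive, and *Iars* (0.43) and *Ddit4* (2.29) alone were above it in both fits. Of 13 immediate early genes 6 were above and 0 below additive (median 0.46), among them *Ier3* (2.16), *Fosl2* (0.66) and *Atf3* (0.85). The median turned to -0.11 with a lane term, as did the contrast of *Atf3* (-0.11), whereas *Myc* (2.06), *Ier3* (1.26) and *Btg2* (0.74) stayed above additive.

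Crypt genes that deviated were mostly above additive. In WT organoids the log2 level of *Lgr5* was 12.93, 12.92, 12.53 and 12.52, compared with 11.89, 11.94, 11.82 and 11.87 in *Atg16l1* ΔIEC, 11.65 and 11.87 in *Rnaseh2b* ΔIEC and 12.39, 12.30, 12.66 and 12.66 in *Atg16l1/Rnaseh2b* ΔIEC organoids. *Lgr5*, the R-spondin receptor that marks crypt stem cells, was lower in every single knockout library than in every WT and every *Atg16l1/Rnaseh2b* ΔIEC library. The lane 1 libraries of *Atg16l1/Rnaseh2b* ΔIEC overlapped with WT, and its lane 2 libraries lay below every WT library. *Lgr5* fell by 0.97 with *Rnaseh2b* deletion when *Atg16l1* was present and rose by 0.62 when *Atg16l1* was absent. The contrast was 1.59 (standard error 0.17, limma adjusted p = 4.6e-05). Of 30 stem cell and Wnt target genes 15 were above and 2 below additive, with a median of 0.27, or 0.42 with a lane term. The proto-oncogene *Myc* had 1.43, the stem cell transcription factor *Ascl2* 1.04 and the BMP co-receptor *Rgmb* 1.03, all past the threshold with a lane term. *Notum*, a secreted Wnt inhibitor, was below additive (-0.94, limma adjusted p = 0.007), but not past the threshold with a lane term. Among 15 genes of Notch signalling and secretory fate 8 were above and 1 below additive (median 0.38, with 3 and 1 in the same direction with a lane term). They included *Neurog3*, which starts the enteroendocrine programme (1.34), *Foxa2* (0.85) and *Gfi1* (0.38) above and the Notch ligand *Dll1* (-0.70) below.

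Mitosis genes that deviated were all above additive. Of 35 mitosis and spindle genes 18 were above and 0 below additive, with a median of 0.19, and the median effect of *Rnaseh2b* deletion was -0.14 without and 0.032 with *Atg16l1* deletion. *Anln*, which builds the cytokinetic ring, had a contrast of 0.58, the spindle protein *Hmmr* 0.49 and the kinetochore protein *Cenpf* 0.45. Of the mitosis genes 12 kept their call with a lane term. Of 44 replication and nucleotide supply genes 2 were above and 6 below additive, a smaller share (18.2%) than among all genes (35.1%), with a median of -0.043. *E2f2* (-0.79) and *Rrm2*, a subunit of ribonucleotide reductase (-0.23), were below and the origin protein *Orc1* (0.55) above additive. No direction held for the replication list as a whole: with a lane term its median was 0.18, and 4 genes were above (*Orc1*, *Pole*, *Ccne2* and *Mcm10*) and 1, *E2f2*, below additive.

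Of 43 DNA damage signalling and repair genes 12 were above and 1 below additive (median 0.096). Their share past the threshold (30.2%) was below that of all genes (35.1%), and 9 and 0 of them kept their call with a lane term. *Atm*, the kinase that senses double-strand breaks, had 0.75, the checkpoint kinase *Chek1* 0.45, *Rad50*, of the complex that binds broken ends, 0.42, and *Lig3*, a single-strand break ligase, 0.35. These 4 genes stayed past the threshold with a lane term. Of 35 p53 targets 10 were above and 6 below additive (median 0.12), against 17% and 18.1% of all genes. *Gdf15*, a stress cytokine (0.86), the death receptor *Tnfrsf10b* (0.40) and *Sesn2* (0.51) were above additive and *Sesn1* (-0.37), like *Sesn2* an antioxidant and mTORC1 regulator, below. *Gdf15* and *Sesn2* lost their call with a lane term. This left 4 of the p53 targets above and 1 below additive in both fits, against 12.1% of all genes in either direction. Among 13 genes of RNase H2 and ribonucleotide processing 3 were above and 2 below additive (median -0.03), a share near the 35.1% of all genes. Besides *Rnaseh2b* they were *Top1*, which incises DNA at ribonucleotides when RNase H2 is missing (0.38), and the p53-induced ribonucleotide reductase subunit *Rrm2b* (0.27) above, and *Aptx* (-0.35) and *Tdp2* (-0.17), which clean up blocked DNA ends, below. *Top1* alone of these 5 stayed past the threshold with a lane term.

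Several genes of the p53 pathway, and the anoctamin *Ano3*, showed no deviation past the threshold. Log2 levels of *Ano3* were 5.23, 5.24, 5.36 and 5.51 in WT, 5.35, 5.397, 5.24 and 5.34 in *Atg16l1* ΔIEC, 6.31 and 6.37 in *Rnaseh2b* ΔIEC and 6.52, 6.13, 6.65 and 6.44 in *Atg16l1/Rnaseh2b* ΔIEC libraries. Every library with the *Rnaseh2b* deletion lay above every library without it, and the effect of the deletion was 1.001 without and 1.10 with *Atg16l1* deletion, with a contrast of 0.101 (standard error 0.149, limma adjusted p = 0.63). *Ccng1*, *Ddit4l* and *Inka2* likewise rose with *Rnaseh2b* deletion both without and with *Atg16l1* deletion, while *Mdm2* passed the threshold with (0.249) and not without *Atg16l1* deletion (0.16), a difference that was not itself past it, and *Trp53* and *Cdkn1a* were past the threshold in neither. The contrasts of *Ccng1* (0.14), *Mdm2* (0.093), *Ddit4l* (0.064), *Inka2* (0.19), *Trp53* itself (0.12) and *Cdkn1a*, which encodes p21 (0.22), were also short of the threshold, with limma adjusted p from 0.22 to 0.72 and standard errors from 0.07 to 0.18. With a lane term *Ccng1* (0.56, limma adjusted p = 0.0018) and *Inka2* (0.86, limma adjusted p = 0.0093) were above additive.

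Deviating genes of the secretory lineages were mostly above additive, with the highest median for goblet cells, which secrete mucus. The log2 level of *Clca1* was 9.16, 8.99, 9.19 and 9.003 in the WT libraries, 8.03, 7.99, 8.23 and 8.47 in *Atg16l1* ΔIEC, 7.55 and 7.26 in *Rnaseh2b* ΔIEC and 8.61, 8.71, 8.60 and 8.44 in *Atg16l1/Rnaseh2b* ΔIEC organoids. For *Clca1*, a secreted goblet cell protein that processes mucus, both *Rnaseh2b* ΔIEC libraries were the lowest, WT the highest, and *Atg16l1/Rnaseh2b* ΔIEC overlapped with *Atg16l1* ΔIEC by 1 library of each. The contrast was 2.09 (standard error 0.16, limma adjusted p = 6.2e-06). Of 24 goblet cell genes 14 were above and 1 below additive, with a median of 0.79, and the median effect of *Rnaseh2b* deletion was -0.34 without and 0.39 with *Atg16l1* deletion. *Tff3* was measured at log2 levels of 13.50, 13.53, 13.65 and 13.69 in WT, 13.13, 13.26, 12.68 and 12.85 in *Atg16l1* ΔIEC, 13.06 and 12.91 in *Rnaseh2b* ΔIEC and 13.94, 13.81, 13.74 and 13.61 in *Atg16l1/Rnaseh2b* ΔIEC. *Tff3*, a trefoil peptide of the mucus layer, was lower in every single knockout library than in every WT library, and 3 of 4 *Atg16l1/Rnaseh2b* ΔIEC libraries were above all WT libraries, with a contrast of 1.40 (standard error 0.17, limma adjusted p = 0.00011). *Gcnt3*, a mucin glycosyltransferase, had 1.05. The goblet cell median was 0.83 with a lane term, with 9 genes above additive in both fits.

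Hormone-producing enteroendocrine cells showed a similar pattern, with 26 of 39 genes above and 2 below additive, a median of 0.49, and 0.30 with a lane term. In WT organoids the log2 level of *Ghrl* was 9.44, 9.28, 9.41 and 9.39, compared with 8.82, 9.20, 8.61 and 8.89 in *Atg16l1* ΔIEC, 8.42 and 8.53 in *Rnaseh2b* ΔIEC and 9.08, 8.93, 9.36 and 9.32 in *Atg16l1/Rnaseh2b* ΔIEC organoids. *Ghrl*, which encodes ghrelin, was lower in both *Rnaseh2b* ΔIEC libraries than in all others. The lane 1 libraries of *Atg16l1/Rnaseh2b* ΔIEC overlapped with WT and its lane 2 libraries with *Atg16l1* ΔIEC. The contrast of *Ghrl* was 1.20 (standard error 0.18, limma adjusted p = 0.00039). The prohormone-processing enzymes *Cpe* and *Pcsk1* had 0.94 and 1.04 and the granule protein *Scg2* 0.88, but *Ghrl* (0.70) and *Pcsk1* (0.66) did not pass with a lane term. Most other calls of this list were lost as well: only *Scg2*, *Cpe*, *Chga*, *Rfx3* and *Sct* stayed above additive in both fits, and only *Mlxipl* below. Of 21 Paneth cell genes 8 were above and 1 below additive (median 0.35), against 17% and 18.1% of all genes. *Kit*, a receptor tyrosine kinase (1.499), and the lectin *Itln1* (1.26) were above. *Guca2b*, the gut hormone uroguanylin, was below (-1.14, and -0.12 and not past the threshold with a lane term). Of the Paneth cell genes 3 stayed above additive in both fits, against 12.1% of all genes in either direction. Lysozyme (*Lyz1*) had 0.68 and was not past the threshold (limma adjusted p = 0.1). Other antimicrobial Paneth cell genes were divided. *Defa24* (0.87) and *Ang4* (0.56) were above additive, whereas *Defa17* (0.60), *Defa30* (0.26), *Defa26* (0.087), *Defa21* (0.037) and *Defa22* (0.0085) were not past the threshold. Of 21 tuft cell genes 4 were above and 1 below additive (median 0.146), 23.8% in all against 35.1% of all genes. Those past the threshold included *Avil* (0.58) and *Inpp5d* (0.23).

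Genes of the regenerative, fetal-like state and YAP targets, which mark injured epithelium, were above additive where they deviated, except for *Krt20*, but differed between library pairs. Log2 levels of *Phlda1* were 9.79, 9.91, 10.17 and 10.19 in WT, 8.91, 9.32, 9.20 and 9.13 in *Atg16l1* ΔIEC, 9.16 and 9.16 in *Rnaseh2b* ΔIEC and 10.26, 10.18, 10.48 and 10.44 in *Atg16l1/Rnaseh2b* ΔIEC libraries. Every single knockout library of *Phlda1* was lower than every WT and *Atg16l1/Rnaseh2b* ΔIEC library, and the contrast was 2.06 (standard error 0.16, limma adjusted p = 6.6e-06). Of the 34 genes 18 were above and 1 below additive, with a median of 0.75. *Anxa3*, *Anxa1* and *Anxa10*, calcium-dependent membrane-binding annexins, had 2.25, 2.12 and 2.04, and *Ly6a*, the surface antigen Sca-1, and *Il1rn*, the interleukin-1 receptor antagonist, 1.96 and 1.95. *Krt20*, a keratin of mature surface cells, was below additive (-1.03). The list's mean relative to all libraries was 0.02 and 0.06 in the lane 2 libraries of *Atg16l1/Rnaseh2b* ΔIEC and 0.54 and 0.44 in its lane 1 libraries, and in WT it was -0.15 and -0.14 in the male and 0.31 and 0.29 in the female libraries. In the fit that includes lane, the median was 0.063, and 1 gene, *Phlda1* (1.70), was above additive in both fits.

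**Figure D3:**
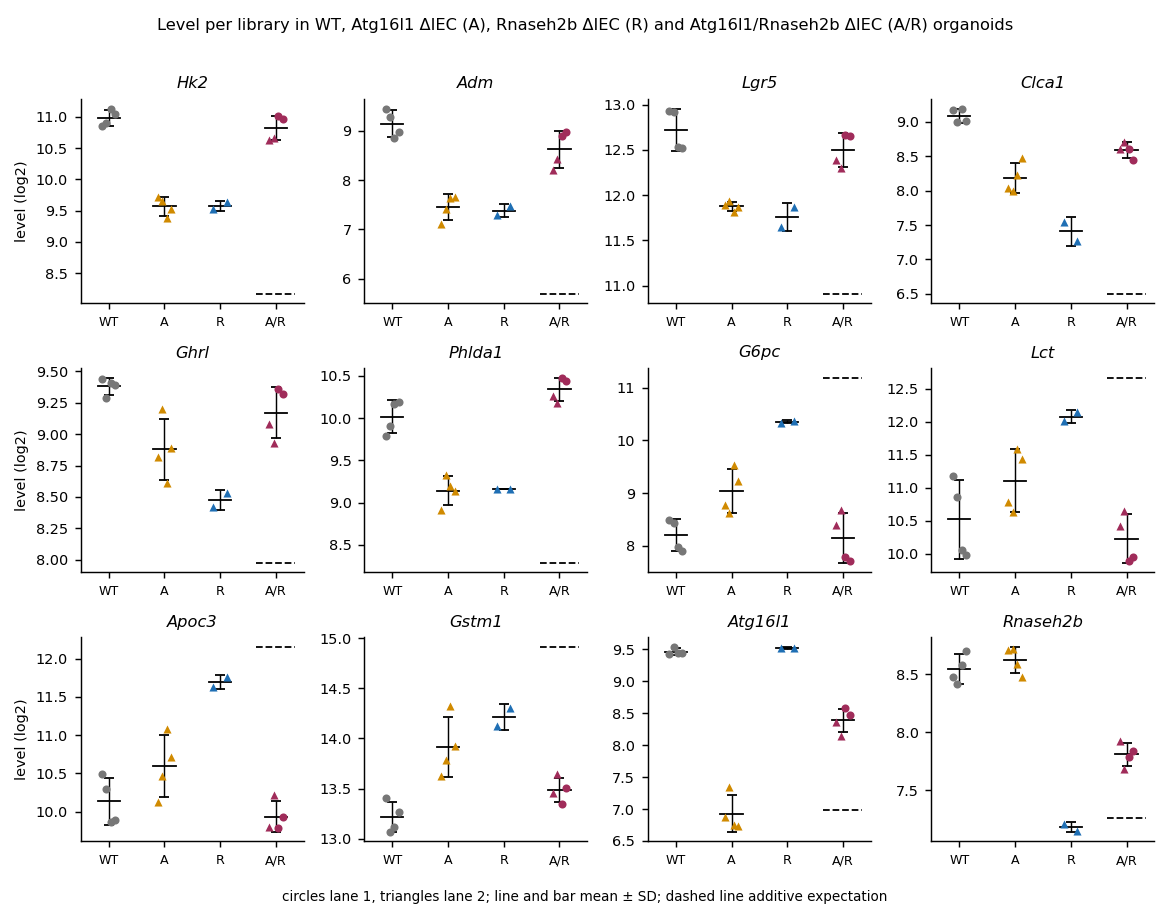
Log2 level (y axis) of 12 genes in each library by genotype (x axis: WT, *Atg16l1* ΔIEC as A, *Rnaseh2b* ΔIEC as R and *Atg16l1/Rnaseh2b* ΔIEC as A/R), with circles for lane 1, triangles for lane 2, mean ± SD as line and bar, and the additive expectation dashed. The *Atg16l1/Rnaseh2b* ΔIEC means lie above the dashed line for *Hk2*, *Adm*, *Lgr5*, *Clca1*, *Ghrl*, *Phlda1*, *Atg16l1* and *Rnaseh2b* and below it for *G6pc*, *Lct*, *Apoc3* and *Gstm1*.

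The genes of absorptive enterocytes were mostly below additive. The log2 level of *G6pc* was 8.49, 8.43, 7.97 and 7.90 in the WT libraries, 8.78, 8.62, 9.53 and 9.23 in *Atg16l1* ΔIEC, 10.34 and 10.37 in *Rnaseh2b* ΔIEC and 8.396, 8.69, 7.79 and 7.71 in *Atg16l1/Rnaseh2b* ΔIEC organoids. The *Rnaseh2b* ΔIEC libraries were the highest for *G6pc*, the catalytic subunit of glucose-6-phosphatase, and *Atg16l1/Rnaseh2b* ΔIEC overlapped with WT and, by 1 library, with *Atg16l1* ΔIEC. *Rnaseh2b* deletion raised *G6pc* by 2.16 without *Atg16l1* deletion and lowered it with *Atg16l1* deletion (-0.89), with a contrast of -3.05 (standard error 0.37, limma adjusted p = 0.00011). *Lct* was measured at log2 levels of 11.18, 10.86, 10.05 and 9.98 in WT, 10.78, 10.62, 11.58 and 11.44 in *Atg16l1* ΔIEC, 12.01 and 12.15 in *Rnaseh2b* ΔIEC and 10.42, 10.65, 9.89 and 9.94 in *Atg16l1/Rnaseh2b* ΔIEC. The *Lct* libraries, for lactase, which splits milk sugar, were highest in *Rnaseh2b* ΔIEC, while the other genotypes overlapped. The contrast was -2.44 (standard error 0.45, limma adjusted p = 0.0014), or -1.52 and not past the threshold with a lane term (limma adjusted p = 0.13). For *G6pc* and *Lct* the male pair lay above the female pair in each other genotype, and the *Rnaseh2b* ΔIEC libraries are a male pair. With sex as a covariate the contrasts of both genes stayed past the threshold. In WT organoids the log2 level of *Apoc3* was 10.49, 10.30, 9.86 and 9.89, compared with 10.13, 10.46, 11.08 and 10.71 in *Atg16l1* ΔIEC, 11.63 and 11.77 in *Rnaseh2b* ΔIEC and 9.80, 10.22, 9.78 and 9.93 in *Atg16l1/Rnaseh2b* ΔIEC organoids. *Apoc3*, an apolipoprotein of chylomicrons, was again highest in both *Rnaseh2b* ΔIEC libraries, and *Atg16l1/Rnaseh2b* ΔIEC overlapped with WT and, by 1 library, with *Atg16l1* ΔIEC, with a contrast of -2.22 (standard error 0.29, limma adjusted p = 0.00017).

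The upstream 250 bases of *G6pc* (GRCm38.p6 chr11:101367466-101367715, plus strand) and *Fabp1* (chr6:71199629-71199878, plus strand), enterocyte genes with large negative contrasts, are printed in the same way. Capitals mark TATAAA (the core of the TATA box), TTTATG (bound by CDX factors) and GTTAAT (a part of the HNF1 site), on either strand, and no 2 marked stretches overlap.
G6pc: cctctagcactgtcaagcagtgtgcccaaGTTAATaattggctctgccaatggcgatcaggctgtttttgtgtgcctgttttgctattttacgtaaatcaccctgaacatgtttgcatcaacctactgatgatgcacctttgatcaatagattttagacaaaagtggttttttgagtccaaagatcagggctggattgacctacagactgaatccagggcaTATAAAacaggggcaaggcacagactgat
Fabp1: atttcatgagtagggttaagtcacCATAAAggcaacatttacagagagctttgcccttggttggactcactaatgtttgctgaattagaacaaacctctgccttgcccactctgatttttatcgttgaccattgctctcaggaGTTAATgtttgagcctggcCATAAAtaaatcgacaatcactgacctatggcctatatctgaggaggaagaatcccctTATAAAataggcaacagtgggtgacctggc
Among all 27025 promoters TATAAA was present in 12.97%, TTTATG in 11.08% and GTTAAT in 6.52%. Of the 13 promoters found for the 15 largest negative contrasts 6 held TATAAA, 4 TTTATG, 2 GTTAAT, 3 AGATAA (a site of GATA factors, in 10.25% of all promoters) and 2 AAAGTCC (a site of HNF4, in 3.648%), and 4 held none of them. Of the 10 for large positive contrasts 2 held TATAAA and 1 TTTATG.

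Of 31 genes of sugar, amino acid and bile acid transport 26 were below and 1 above additive (over all genes 18.1% and 17%), with a median of -1.10, the lowest of the lists. The median effect of *Rnaseh2b* deletion was 0.65 without and -0.35 with *Atg16l1* deletion, and that of *Atg16l1* deletion 0.26 without and -0.78 with *Rnaseh2b* deletion. They included the gluconeogenic enzymes *Fbp1* (-2.10) and *Pck1* (-0.88), *Slc6a19*, a transporter of neutral amino acids (-1.74), *Slc2a5*, the fructose transporter (-1.91), and *Nr0b2*, a bile acid-induced corepressor (-0.67). Of 26 brush border genes 18 were below and 1 above additive, with a median of -0.62. The peptidases *Ace* (-2.26), *Enpep* (-1.59), *Mep1b* (-1.28) and *Mep1a* (-0.90) and the gamma-glutamyltransferase *Ggt1* (-1.87) were among them, and *Sis*, the sucrase-isomaltase, had -1.31. Of 27 genes of fat absorption 22 were below and 0 above additive (median -0.67). *Apoa4* (-1.76), the fatty acid binding proteins *Fabp1* (-2.07) and *Fabp2* (-1.48) and *Agpat2*, an enzyme of triglyceride synthesis (-0.47), were examples. With lane in the model the medians of transport, brush border and fat genes were -0.71, -0.44 and -0.65, with 8, 4 and 8 genes below additive in both fits. Over all genes 12.1% were past the threshold in both fits in the same direction.

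Transcription factors of the intestinal epithelium were divided. Of 26 tested, 11 were below and 5 above additive (median -0.23), and 6 and 3 were so in both fits. *Hnf4g*, an enterocyte nuclear receptor (-0.89), and *Creb3l3*, which drives apolipoprotein and lipid genes (-1.97), were below, though not past the threshold with a lane term. Log2 levels of *Elf3* were 12.67, 12.68, 12.60 and 12.64 in WT, 12.12, 12.10, 12.11 and 12.10 in *Atg16l1* ΔIEC, 12.23 and 12.22 in *Rnaseh2b* ΔIEC and 12.56, 12.65, 12.45 and 12.50 in *Atg16l1/Rnaseh2b* ΔIEC libraries. *Elf3*, an epithelial ETS factor, was above additive with a contrast of 0.85 (standard error 0.059, limma adjusted p = 2.6e-06), its single knockout libraries all lying below all others, and it was 1.05 with a lane term. The forkhead factors *Foxa2* (0.85) and *Foxa3* (0.74), which act in secretory cells, were also above additive.

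Enzymes of foreign-compound metabolism were below additive as well. The log2 level of *Gstm1* was 13.40, 13.07, 13.12 and 13.26 in the WT libraries, 13.62, 13.79, 14.33 and 13.92 in *Atg16l1* ΔIEC, 14.12 and 14.31 in *Rnaseh2b* ΔIEC and 13.45, 13.64, 13.34 and 13.50 in *Atg16l1/Rnaseh2b* ΔIEC organoids. *Gstm1*, a glutathione transferase, was higher in every single knockout library than in every WT library, with *Atg16l1/Rnaseh2b* ΔIEC overlapping both WT and *Atg16l1* ΔIEC, and had a contrast of -1.43 (standard error 0.20, limma adjusted p = 0.00024). Of 53 genes 35 were below and 1 above additive, with a median of -0.58 (-0.53 with a lane term, where 12 stayed below and 1 above). The glucuronosyltransferase *Ugt1a7c* (-0.76) is counted on a locus whose isoforms share exons, so its reads may be split among them. *Cyp3a11*, another drug-metabolising cytochrome P450, rose by 2.17 with *Rnaseh2b* deletion alone, with a difference of 0.077 when *Atg16l1* was deleted too (contrast -2.09, but -0.41 with a lane term).

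Of 38 genes of fatty acid oxidation, ketogenesis and PPAR targets 25 were below and 1 above additive, with a median of -0.37 (-0.34 with a lane term). The peroxisomal enzymes *Ehhadh* (-0.89) and *Acaa1b* (-1.78) and the mitochondrial *Hadh* (-0.82) were among those below. None of these 3 stayed past the threshold with a lane term, and 1 gene of the list did. Subunits of the respiratory chain were shifted by less, with 25 of 61 below and 1 above additive, a median of -0.14, and -0.014 with a lane term, where 1 gene stayed below. Of 36 genes of cholesterol and fatty acid synthesis 12 were below and 0 above additive (median -0.13), a share of 33.3% against 35.1% of all genes. Among them was *Hsd17b7*, an enzyme of sterol synthesis (-0.62), the 1 gene of the list below additive in both fits. NRF2 and antioxidant genes were mostly below additive (15 below and 3 above of 32, median -0.23), and 5 stayed below and 1 above with a lane term. *Nqo1*, the quinone reductase (-0.67), and *Osgin1* (-1.29) were below, and *Keap1*, the inhibitor of NRF2, above additive (0.41). *Hmox1*, the haem oxygenase, was above additive too (1.29), but not past the threshold with a lane term.

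Interferon-stimulated and antigen presentation genes were below additive where they deviated. Of 46 interferon-stimulated genes 18 were below and 0 above additive, with a median of -0.29. *Irgm2* was measured at log2 levels of 5.71, 5.73, 5.66 and 5.64 in WT, 5.93, 6.06, 6.196 and 6.28 in *Atg16l1* ΔIEC, 5.96 and 6.05 in *Rnaseh2b* ΔIEC and 5.601, 5.62, 5.70 and 5.86 in *Atg16l1/Rnaseh2b* ΔIEC. The single knockout libraries of *Irgm2*, an interferon-induced GTPase, were all above those of WT and *Atg16l1/Rnaseh2b* ΔIEC. The lane 2 libraries of *Atg16l1/Rnaseh2b* ΔIEC lay below every WT library, and those of lane 1 did not. The contrast of *Irgm2* was -0.75 (standard error 0.12, limma adjusted p = 0.00055). *Tap2*, a peptide transporter of antigen presentation (-0.74), the immunoproteasome subunit *Psmb9* (-0.96) and *Ifi35* (-0.72) were others. Here the lane term enlarged the median deviation of the list, to -0.78 with 33 genes below additive, of which 15 were so in both fits. The contrast of *Psmb9* was smaller with a lane term (-0.53) and not past the threshold (limma adjusted p = 0.15). The list's mean relative to all libraries was -0.22 and -0.14 in the lane 2 and 0.15 and 0.24 in the lane 1 libraries of *Atg16l1/Rnaseh2b* ΔIEC organoids. Of 13 MHC genes 8 were below and 0 above additive (median -0.45), and 2, *B2m* and *H2-Q2*, were below in both fits. *B2m*, the light chain of MHC class I (-0.49), was among them, as were the class I genes *H2-Q2* (-1.11) and *H2-T3* (-1.07), which have close copies that may share reads.

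Of 15 sensors of nucleic acids and their signalling partners 2 were above and 1 below additive (median -0.03), a share of 20% against 35.1% of all genes. They were *Irf3* (0.31) and *Enpp1*, which degrades cGAMP (0.30), above and *Unc93b1*, which delivers Toll-like receptors to endosomes, below (-0.46). With a lane term *Irf3* (0.14, limma adjusted p = 0.44) was no longer past the threshold, *Enpp1* turned to -0.055 (limma adjusted p = 0.8), and *Unc93b1* stayed below additive (-0.99). *Cgas* had 0.095 (limma adjusted p = 0.38) and *Tmem173*, which encodes STING, -0.38 (limma adjusted p = 0.1). Chemokines and mucosal defence genes went both ways, with 8 of 30 below and 6 above additive (median -0.19), against 18.1% and 17% of all genes. In both fits 5 were below and 1 above, against 12.1% of all genes in either direction. In WT organoids the log2 level of *Reg3a* was 8.09, 7.80, 7.31 and 7.51, compared with 8.54, 8.48, 9.72 and 8.84 in *Atg16l1* ΔIEC, 9.96 and 10.45 in *Rnaseh2b* ΔIEC and 7.51, 8.08, 6.95 and 7.21 in *Atg16l1/Rnaseh2b* ΔIEC organoids. *Reg3a*, an antimicrobial lectin, had its highest levels in *Rnaseh2b* ΔIEC, then in *Atg16l1* ΔIEC. The lane 2 libraries of *Atg16l1/Rnaseh2b* ΔIEC overlapped with WT, and those of lane 1 lay below every WT library. The contrast of *Reg3a* was -3.99 (standard error 0.45, limma adjusted p = 6.5e-05), and -2.92 with a lane term (limma adjusted p = 0.012). The chemokine *Cx3cl1* (-0.92) was below and *Tnfaip3*, which restrains NF-kB signalling, above additive (1.021).

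Cell death genes were mixed, with 5 of 35 above and 9 below additive (median -0.15), and 2 and 5 in both fits. Their share past the threshold in the first fit was little above the 35.1% of all genes. Log2 levels of *Nlrp6* were 13.27, 13.26, 13.38 and 13.38 in WT, 12.46, 12.57, 12.78 and 12.73 in *Atg16l1* ΔIEC, 12.67 and 12.72 in *Rnaseh2b* ΔIEC and 12.99, 13.15, 13.12 and 13.18 in *Atg16l1/Rnaseh2b* ΔIEC libraries. *Nlrp6*, an inflammasome sensor of the epithelium, was lower in every single knockout library than in all others, and its *Atg16l1/Rnaseh2b* ΔIEC libraries lay between those and WT, with a contrast of 1.10 (standard error 0.101, limma adjusted p = 1.7e-05). *Tnfrsf1a*, the TNF receptor (-0.31), the pore-forming *Bak1* (-0.27) and the survival gene *Bcl2l1* (-0.35) were below additive, *Bak1* not past the threshold with a lane term.

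The autophagy machinery showed no common direction: 9 of 44 genes were above and 9 below additive, with a median of -0.037. This share was little above the 35.1% of all genes. *Atg2b*, which transfers lipid to the growing autophagosome (0.57), *Atg9a*, a lipid scramblase of its seeding vesicles (0.40), and *Atg16l1* itself were above. *Wipi2*, which recruits ATG16L1 to the membrane (-0.33), and *Map1lc3b*, an LC3 protein (-0.31), were below. With a lane term 4 of the 9 genes above additive kept their call (*Atg2b*, *Atg9a*, *Atg16l1* and *Ulk2*) and 0 of the 9 below, with *Wipi2* at -0.14 (limma adjusted p = 0.18) and *Map1lc3b* at -0.16 (limma adjusted p = 0.16). Of 40 lysosomal genes 3 were above and 8 below additive, 27.5% in all and thus less than the 35.1% of all genes, with a median of 0.019, and 2 and 3 were so in both fits. *Atp6ap1*, of the proton pump (0.43), was above and the proteases *Ctsz* (-0.48) and *Ctsa* (-0.59) were below, *Ctsa* not past the threshold with a lane term. Of 39 genes of ER folding and the unfolded protein response 12 were above and 3 below additive (median 0.11), and 2 and 1 in both fits. The share in the first fit was near the 35.1% of all genes. Those above additive included the chaperone *Hsp90b1* (0.30) and *Ern2*, the goblet cell stress sensor (0.85). The 78 cytosolic ribosomal protein genes rarely deviated, with 2 above and 2 below additive, 5.13% in all against 35.1% of all genes, and a median of 0.022. Of 15 metal handling genes 2 were above and 4 below additive (median -0.043), a share little above the 35.1% of all genes. *Tfrc*, the transferrin receptor (0.62), and *Fth1*, ferritin heavy chain (-0.62), had opposite signs, and *Tfrc* was the 1 gene of the list past the threshold in both fits. Of 26 ion transport and tight junction genes 4 were above and 8 below additive (median -0.064), against 17% and 18.1% of all genes. The chloride channel *Cftr* of crypts was above (0.39) and the chloride exchanger *Slc26a3* of mature enterocytes below (-0.86), neither past the threshold with a lane term. Of 19 clock genes 4 were above and 2 below additive (median -0.037), 31.6% in all against 35.1% of all genes, with *Per2* (0.58) above and *Hlf* (-1.10) below. None of these 6 kept its call with a lane term, *Per2* at 0.29 (limma adjusted p = 0.13) and *Hlf* at -0.47 (limma adjusted p = 0.22).

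**Figure D4:**
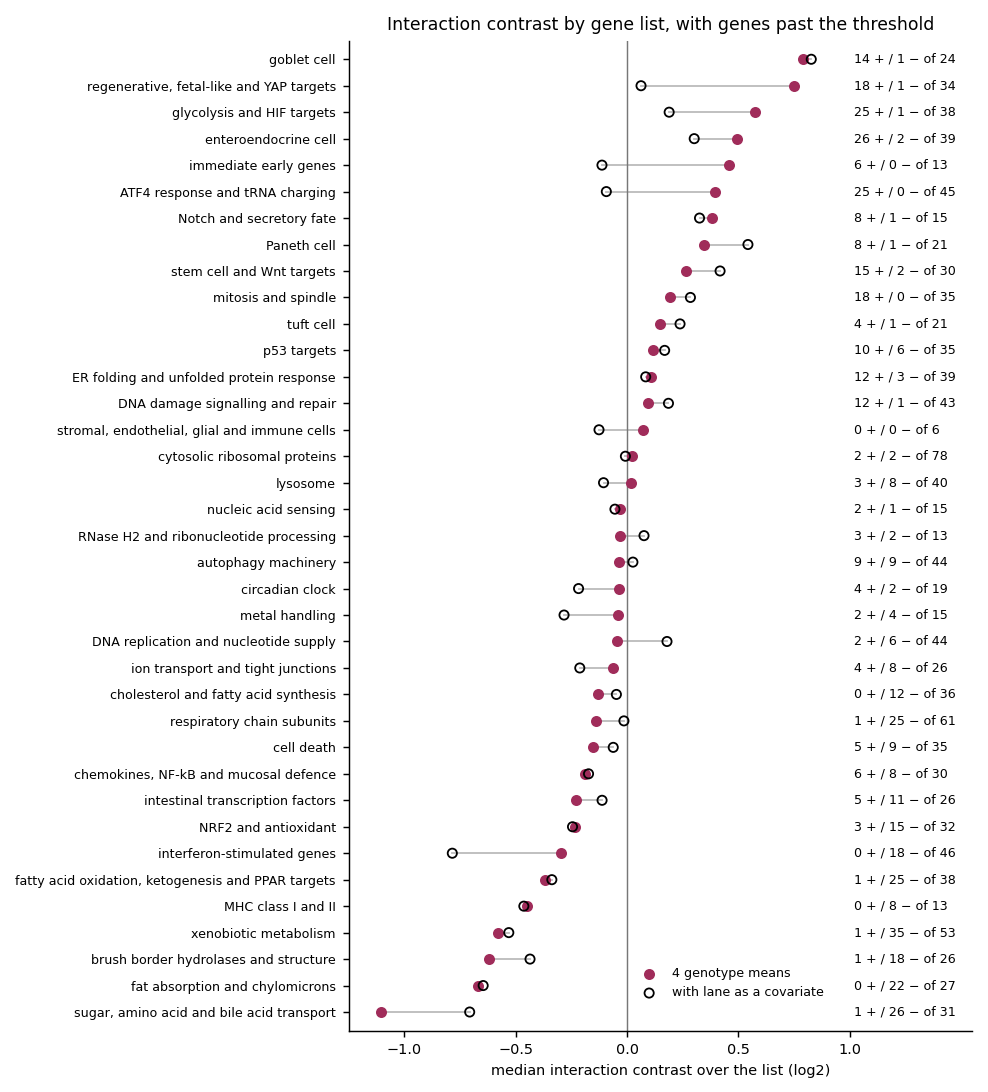
Median interaction contrast (x axis, log2) of each gene list (y axis), as filled points for the fit of 4 genotype means and open points with a lane term, with the numbers of genes past the threshold above (+) and below (−) additive in the first fit at the right. Goblet cell genes had the highest median (0.79) and transport genes the lowest (-1.10), and the lane term moved the regenerative, ATF4, immediate early and glycolysis lists towards 0 or across it and the interferon-stimulated genes away from it.

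With a lane term the contrast was past the threshold for 2580 genes (20.1%), of which 1219 were above and 1361 below additive. Of the 4499 calls of the plain contrast 4252 (94.5%) kept their sign and 1549 (34.4% of them, 12.1% of all genes tested) were past the threshold in the same direction, whereas 3 passed it in the opposite direction. *Hk2*, *Kdm3a*, *Lgr5*, *Myc*, *Clca1*, *Tff3*, *Elf3*, *Atm*, *G6pc*, *Apoc3*, *Reg3a*, *Gstm1* and *Irgm2* were past it in both fits. All 4499 calls kept their sign when only the lane 1 or only the lane 2 libraries of *Atg16l1/Rnaseh2b* ΔIEC organoids were used, with a median size of 0.37 and 0.35, although lane still enters those contrasts. They also kept it when the means were compared on the linear scale. The count rested on both *Rnaseh2b* ΔIEC libraries, at 2981 without library 1 and 2704 without library 2, and on treating paired libraries as separate, at 1553 with libraries 1 and 2, and 3 and 4, as correlated pairs. With each pair averaged, which leaves 1 value for *Rnaseh2b* ΔIEC, limma called 0 genes at an adjusted p under 0.05 and 2774 at an unadjusted p under 0.05.

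**Figure D5:**
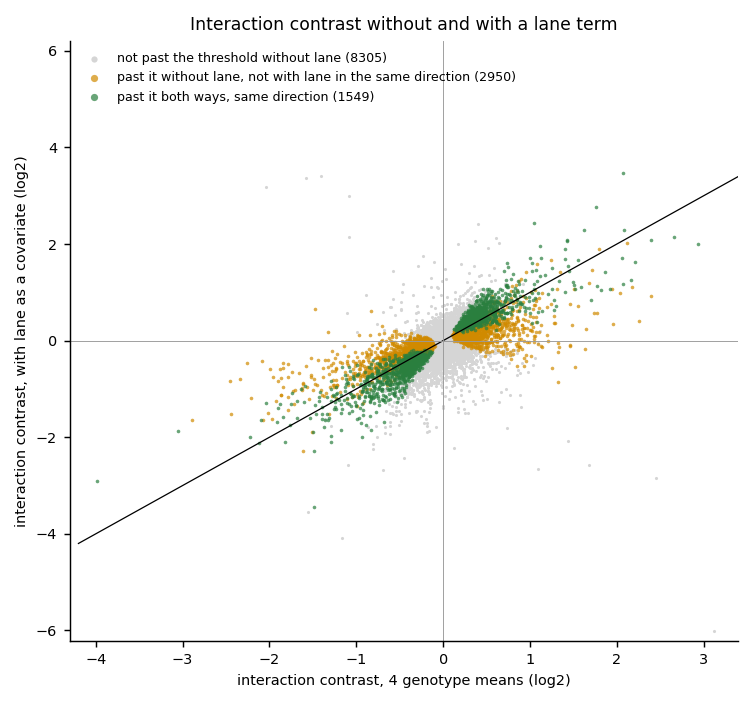
Interaction contrast of each of 12804 genes from 4 genotype means (x axis, log2) against the contrast with a lane term (y axis, log2), with the line of equality in black. Green genes (1549) were past the threshold in the same direction in both fits, orange genes (2950) in the first alone or with the other sign, and most orange genes lie closer to 0 on the y axis.

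The deviations were spread over the genome. Between 30.2% (chromosome 7) and 40.3% (chromosome 13) of the tested genes of each autosome were past the threshold, and 24.9% of those on chromosome X. Within 5 Mb of *Rnaseh2b* 9 of 61 genes were above and 12 below additive (34.4%), and within 5 Mb of *Atg16l1* 9 of 60 were above and 18 below (45%), among them several Ugt1a genes, which share exons. The share was 28.9% among the 20% of genes with the lowest mean level and 41.2% among the 20% with the highest.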

How the data were processed

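Messenger RNA of 14 organoid cultures was measured by stranded sequencing (WT n = 4, *Atg16l1* ΔIEC n = 4, *Rnaseh2b* ΔIEC n = 2, *Atg16l1/Rnaseh2b* ΔIEC n = 4). Per the study's methods and the submitters' processing notes, the authors used cutadapt for trimming, TopHat2 for alignment to GRCm38, HTSeq for counts per gene and DESeq2 for their analysis (versions not given in the sources used here). The deposited table holds log2 values normalized between libraries by the authors, from -2.13 to 17.45, in which low genes hardly vary. The transformation is not named, so fold changes of low genes may be understated, and depth is unknown. Other *Rnaseh2b* ΔIEC samples that the study describes were not analysed here.

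Groups came from the sample titles, and lane from the library names. Genes with a mean of at least 3.32 were fitted with limma 3.58.1 (R 4.3.3, mean trend) on 4 genotype means, and contrasts were adjusted by Benjamini-Hochberg over 12804 genes at 0.05, two-sided. The fit was tested on simulated data in which libraries varied independently, so correlated pairs and lane were not covered. Of simulated interactions of 0.25, 0.5 and 1 on the log2 scale, 11.5%, 69.5% and 94.5% were recovered. Symbols were found for 18727 identifiers (99.7%).

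The members and lists were chosen with earlier results of these data known. Named were the targeted genes and RNase H2 subunits, the 15 largest positive and 15 largest negative called contrasts with 1 sign over all choices of library (leaving out sex-linked markers, predicted genes and Rik symbols), up to 4 called genes with the lowest p in each list, and *Trp53*, *Cdkn1a*, *Ccng1*, *Mdm2*, *Ddit4l*, *Ano3* and *Inka2*. *Aldoa*, *Aldoc*, *Ang4*, *Ankrd37*, *Btg2*, *Ccne2*, *Cgas*, *Chga*, *Creb3l3*, *Defa17*, *Defa21*, *Defa22*, *Defa24*, *Defa26*, *Defa30*, *Eno1*, *Gapdh*, *Gpi1*, *Hk1*, *Hmox1*, *Ldha*, *Lyz1*, *Map1lc3b*, *Mcm10*, *Mlxipl*, *Notum*, *P4ha1*, *Pfkfb4*, *Pfkl*, *Pfkm*, *Pfkp*, *Pgam1*, *Pgk1*, *Pkm*, *Pole*, *Rfx3*, *Rrm2b*, *Sct*, *Sis*, *Slc2a1*, *Slc2a5*, *Slc6a19*, *Tmem173*, *Tpi1* and *Ulk2* were added after their values were seen, as was the search for ACGTG. Promoters are RefSeq windows on GRCm38.p6. The planned comparison of motif shares between gene sets is void, since 78.43% of the tested genes had a promoter, and so is the list of mitochondrially encoded genes, of which 0 were in the table. Alternatives changed the filter, pseudocount, scaling, covariates, treatment of pairs, *Atg16l1/Rnaseh2b* ΔIEC libraries and variance trend, or left out each library. Some genes that the rule picks are not reported here. Figures were drawn with matplotlib 3.10.9.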

Additional observations from a re-analysis of the deposited data

Results flagged for a closer look

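The effect of *Rnaseh2b* deletion differed between organoids with and without *Atg16l1* by the test of the difference itself, the interaction contrast in limma, for 4499 genes. Among the genes named for their size, the contrasts below additive were *Reg3a* -3.99, *G6pc* -3.05, *Bco1* -2.89, *Slc5a11* -2.45, *Lct* -2.44, *Ace* -2.26, *Apoc3* -2.22, *Dpep1* -2.22, *Scin* -2.12, *Fbp1* -2.10, *Cyp3a11* -2.09, *Fabp1* -2.07, *Bbox1* -2.04, *Bst1* -2.02 and *Cyp2b10* -1.995. The contrasts above additive were *Adm* 2.94, *Hk2* 2.66, *Pfkfb3* 2.40, *Anxa3* 2.25, *Smtnl2* 2.21, *Ier3* 2.16, *Anxa1* 2.12, *Clca1* 2.09, *Tent5c* 2.07, *Phlda1* 2.06, *Anxa10* 2.04, *Ly6a* 1.96, *Il1rn* 1.95 and *Egln3* 1.92. The targeted genes were also above additive, at 1.40 for *Atg16l1* and 0.55 for *Rnaseh2b*, so the reduction of each was smaller in *Atg16l1/Rnaseh2b* ΔIEC than in its single knockout. Lane 1 held all WT libraries and lane 2 all single knockout libraries, and its part in these contrasts cannot be told apart from that of genotype. Libraries 1 and 2, and 3 and 4, of a genotype deviated together, and the *Rnaseh2b* ΔIEC libraries are a single pair. With these pairs correlated in the fit, 1553 genes were past the threshold, and of the 29 genes listed for their size *Fabp1* was not. With the pairs averaged, limma called 0 genes (2774 at an unadjusted p under 0.05), so that all 29 lost their call.

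Among 231 sets of 4 libraries of a genotype, 7 had 1 library far from the other 3 by Dixon's criterion, where chance gives about 1 in 20 sets. *Atg16l1/Rnaseh2b* ΔIEC library 2 was high for *Fabp1* (log2 level 14.74), for *Bst1* (7.79) and for the mean of the fat absorption genes (-0.024 relative to all libraries). *Atg16l1/Rnaseh2b* ΔIEC library 1 was high for the mean of the mitosis genes (0.13). *Atg16l1* ΔIEC library 2 was high for the mean of the regenerative genes (0.059), and *Atg16l1* ΔIEC library 1 was low for *Egln3* (12.18). WT library 2 was high for *Atg16l1* (9.54).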

How the results depend on the processing

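Against 4499 calls of the interaction, other filters, pseudocounts, scalings, sex as a covariate, the *Atg16l1/Rnaseh2b* ΔIEC libraries of 1 lane alone and a fit without a mean trend gave 4082 to 5302. Samples of the same number were not paired by the labels (r from -0.41 to 0.46 between genotypes, 7 of 18 pairs over 0.1), and the replicate block gave 4484. Lane as a covariate gave 2580 (1219 above and 1361 below additive), with 1504 calls for *Rnaseh2b* deletion without *Atg16l1* deletion and 1586 for *Atg16l1* deletion without *Rnaseh2b* deletion, and turned *Enpp1* (-0.055) and *Atf3* (-0.11). Correlated pairs (correlation 0.65) gave 1553 calls (679 above and 874 below), 728 and 478 for *Rnaseh2b* deletion without and with *Atg16l1* deletion, and 384 and 692 for *Atg16l1* deletion without and with *Rnaseh2b* deletion. Averaged pairs, with fewer samples, gave 0 calls of the interaction in limma (0 above, 0 below, 2774 at an unadjusted p under 0.05), 0 and 0 for *Rnaseh2b* deletion, and 1 and 0 for *Atg16l1* deletion. Leaving out 1 library at a time gave 2704 to 4714 calls, 1293 to 2300 above and 1411 to 2414 below additive, 1133 to 3832 and 1827 to 3470 for *Rnaseh2b* deletion without and with *Atg16l1* deletion, and 1659 to 2869 and 757 to 3288 for *Atg16l1* deletion without and with *Rnaseh2b* deletion. The lowest counts came without *Rnaseh2b* ΔIEC library 1 (1133 for *Rnaseh2b* deletion, 1337 for *Atg16l1* deletion with *Rnaseh2b* deletion) or library 2 (1239 and 757), where the lone library is assumed to vary like the other genotypes, and without *Atg16l1* ΔIEC library 3 (1827) or 4 (1832). Of 160 genes picked by the naming rule and past the threshold, 92 remained past it with lane as a covariate, 66 did not and 2 reversed. The cause of these shifts was not tested. Depth could not be assessed from these values.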
